A study of Mus musculus with 6 samples.

Results

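The genes of the mouse mitochondrial genome were taken from the deposited count table as every gene whose symbol starts with mt-, which gave 37 of the 54532 genes listed. They were 13 protein-coding genes, 2 rRNA genes and 22 tRNA genes, and no other genes carried the prefix. Livers had been collected from male C57BL/6J mice in an insulin-resistant (IR) state, reached with high-fat feeding (a high-fat diet, HFD) for 6 weeks from 8 weeks of age. All mice were fasted for 16 h and given an intraperitoneal injection, and the livers were taken 6 h later. The IR insulin group (n = 3 libraries) received 0.75 units of insulin per kg and the IR vehicle group (n = 3 libraries) received bovine serum albumin (BSA), its vehicle. Both groups had therefore been fed the HFD and fasted, and no chow-fed library was analysed here. The series was made to ask which liver genes respond to insulin during IR, and the comparison here asks it of the mitochondrial transcripts.

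Mitochondrial DNA is a small circular genome that mitochondria transcribe themselves, with a nuclear-encoded RNA polymerase, from both of its strands. The long primary transcripts are processed into single RNAs by removal of the tRNAs that lie between most of the other genes. Every mitochondrial mRNA encodes a core subunit of the oxidative phosphorylation system, namely complex I (NADH dehydrogenase, the mt-Nd genes), complex III (mt-Cytb), complex IV (cytochrome c oxidase, the mt-Co genes) and the ATP synthase, complex V (mt-Atp6 and mt-Atp8), whereas the rRNAs and tRNAs serve the organelle's own ribosomes. Hepatocytes are rich in mitochondria, and nuclear genomes also carry inserted copies of mitochondrial DNA, from which short reads may not be told apart.

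The libraries held between 18449986 and 21827619 counts. The hepatocyte markers Alb, Ttr, Apoa1, Cyp3a11 and Serpina1c summed to between 50677 and 149745 CPM (counts per 1000000 of the library size after TMM scaling), whereas the markers of adipocytes, muscle and exocrine pancreas each summed to less than 0.1 CPM in all libraries. Erythroid markers summed to 413 to 1587 CPM in IR vehicle and 312 to 478 CPM in IR insulin, and 4 of those 5 genes had an unadjusted p under 0.05; their part in the results below was not tested. IR vehicle replicate 2 stood apart from the other libraries: 32.5% of the genes tested lay at least 1 log2 unit from the median of the other 5 libraries there, against 2.46% to 11.9% elsewhere, and Alb alone took 11.5% of its counts, against 4.18% to 7.07%. Where values of a named gene rest on it, most are given with and without it. In bulk liver, fewer cells of a type and less RNA per cell cannot be told apart.

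Of the 37 mitochondrial genes, 28 were transcribed from the heavy strand and 9 from the light strand (mt-Nd6 and 8 tRNA genes). All 13 protein-coding genes, both rRNA genes and 12 tRNA genes passed the filter on low counts, so that 27 genes were tested. The 10 tRNA genes that did not pass had at most 19 counts in a library, and 4 of them (mt-Tf, mt-Ts1, mt-Td and mt-Tk) had 0 counts in every library, which allows up to 3 counts per library. Whether polyadenylated RNA was selected, and how long the reads were, is not given in the sources used here, so that the rRNA and tRNA counts are not a measure of the amount of these RNAs relative to mRNA.

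The short genes mt-Nd4l, mt-Atp8, mt-Tl1 and mt-Nd3 carry several of the values described below, and their sequences are shown because the count of each depends on what a read can be assigned to. They were read from the GENCODE release 21 transcripts of mouse build 38. In mt-Nd4l (chrM:9877-10173, heavy strand, a complex I subunit) the capitals mark the last 7 bases, which also belong to mt-Nd4. In mt-Atp8 (chrM:7766-7969, heavy strand, an ATP synthase subunit) the capitals mark the last 43 bases, which also belong to mt-Atp6. In mt-Tl1 (chrM:2676-2750, heavy strand, one of the leucine tRNA genes, between mt-Rnr2 and mt-Nd1 with no base between them) the capitals mark the anticodon.
mt-Nd4l: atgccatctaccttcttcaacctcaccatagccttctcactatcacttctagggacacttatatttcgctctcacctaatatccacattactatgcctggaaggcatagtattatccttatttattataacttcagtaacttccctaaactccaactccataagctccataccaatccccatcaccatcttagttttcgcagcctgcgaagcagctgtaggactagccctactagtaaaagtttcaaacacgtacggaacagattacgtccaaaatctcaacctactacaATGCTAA
mt-Atp8: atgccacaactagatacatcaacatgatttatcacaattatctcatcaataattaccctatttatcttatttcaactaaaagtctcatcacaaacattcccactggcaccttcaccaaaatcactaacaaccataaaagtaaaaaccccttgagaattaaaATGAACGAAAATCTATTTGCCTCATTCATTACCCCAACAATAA
mt-Tl1: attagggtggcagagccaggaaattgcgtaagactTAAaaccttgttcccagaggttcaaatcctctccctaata

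The table also listed nuclear genes that match mitochondrial DNA. Of these, 7 genes, all annotated as unprocessed pseudogenes, lay next to each other on the minus strand at chr1:24611535-24616197 and matched the interval chrM:6390-11042, with 2 mismatches over 4140 aligned bases. Gm28439 matched 876 bases of mt-Nd4, Gm10222 matched 294 bases of mt-Nd4l, Gm28437 matched 783 bases of mt-Co3, Gm10925 matched 678 bases of mt-Atp6 and Gm28661 matched 681 bases of mt-Co2, each without a mismatch. Gm28438 matched mt-Nd3 over 345 bases and Gm29216 matched mt-Co1 over 483 bases, each with 1 mismatch. A further copy of mt-Co1 on chromosome 2, Gm13340, matched all 1545 bases at 97.6% identity. The interval covered 11 mitochondrial genes in full and mt-Co1 and mt-Nd4 in part.

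The single differing base of Gm28438 (chr1:24613060-24613119, minus strand) lay at the third base of mt-Nd3 (chrM:9459-9518, a complex I gene), as T3C with positions counted from 1 at the 5′ end of the mitochondrial gene, and is in capitals in the first 60 bases of both.
mt-Nd3: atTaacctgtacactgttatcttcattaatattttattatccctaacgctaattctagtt
Gm28438: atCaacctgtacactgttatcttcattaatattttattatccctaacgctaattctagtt

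For mt-Co1 the 100 bases at chrM:6390-6489 are shown beside Gm29216 (chr1:24616089-24616188, minus strand, A1066T) and Gm13340 (chr2:22588486-22588585, minus strand, T1072C and C1134T in this stretch), with the bases that differ in capitals. They show how few bases separate a read of the gene from a read of a copy.
mt-Co1: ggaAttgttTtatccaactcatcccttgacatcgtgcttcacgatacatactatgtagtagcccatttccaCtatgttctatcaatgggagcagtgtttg
Gm29216: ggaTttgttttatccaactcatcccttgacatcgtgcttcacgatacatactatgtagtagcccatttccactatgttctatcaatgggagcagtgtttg
Gm13340: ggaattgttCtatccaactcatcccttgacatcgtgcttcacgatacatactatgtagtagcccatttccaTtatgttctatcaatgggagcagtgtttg

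The share of counts in mitochondrial genes overlapped between the groups. It was 4.09%, 3.76% and 4.05% in IR vehicle replicates 1 to 3 and 4.08%, 4.07% and 3.25% in IR insulin replicates 1 to 3. IR insulin replicate 3 had the lowest share, and the other insulin libraries lay within the range of the vehicle libraries. The means were 3.97% ± 0.178 (SD, n = 3) and 3.802% ± 0.475 (SD, n = 3), a difference of -0.167 percentage points (two-sided exact permutation test, p = 0.8, where the smallest p possible with 3 against 3 libraries is 0.1). The exact 95% Clopper-Pearson interval of the share in a single library was narrow (3.25% to 3.26% in IR insulin replicate 3) and covers counting error only.

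Protein-coding genes made up nearly all of it. Their share of the library was 3.78% ± 0.349 in IR vehicle and 3.71% ± 0.462 in IR insulin (SD, n = 3 each, exact permutation p = 0.7). The tRNA genes together took 0.0145% to 0.0187% of a library (exact permutation p = 0.5). The rRNA genes took 0.0632% to 0.101% in 5 libraries but 0.375% in IR vehicle replicate 2, where they were 9.97% of the mitochondrial counts against 1.61% to 2.48% elsewhere. The rRNA difference between group means, -0.0957 percentage points (exact permutation p = 0.6), became 0.00365 without that library. Light-strand genes took 2.18% to 3.25% of the mitochondrial counts (exact permutation p = 0.7). After Benjamini-Hochberg adjustment over the 6 shares compared, every one of these permutation p-values was 0.8.

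**Figure D1:**
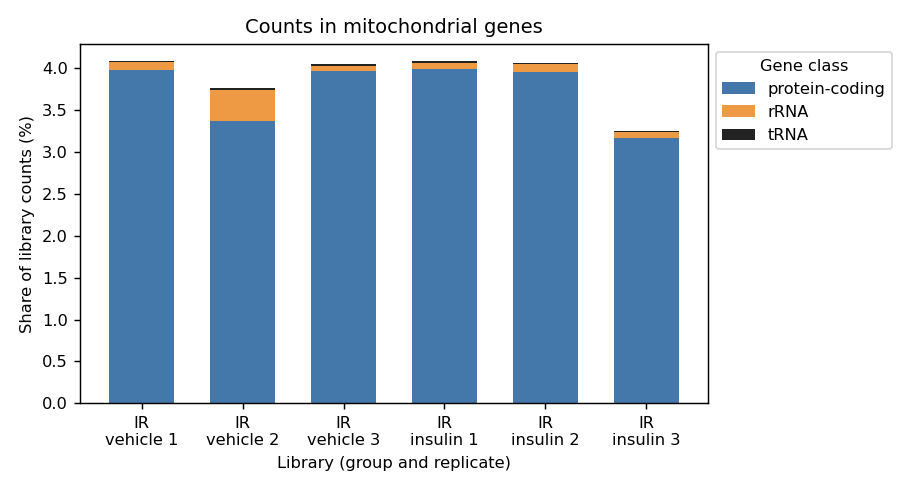
Share of library counts (%) in mitochondrial protein-coding, rRNA and tRNA genes, stacked, in each of the 6 libraries. The bars of 5 libraries reach 3.76% to 4.09%, IR insulin replicate 3 reaches 3.25%, and the rRNA segment is widest, at 0.375%, in IR vehicle replicate 2.

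Per length, counts on the mitochondrial mRNA genes differed widely, although most of these mRNAs are made from the same primary transcript. The values below are counts per gene length, and how far they follow the amounts of mRNA was not tested. In CPM per kb of gene length, mt-Co1 (the catalytic subunit of complex IV) had the highest median over the 6 libraries, 9844, followed by mt-Cytb (the cytochrome b of complex III) at 6220, mt-Nd1 at 4735, mt-Nd2 at 3882 and mt-Nd4 at 2249, all complex I subunits. mt-Nd6, the only light-strand mRNA, had a median of 1576 CPM per kb, and mt-Nd5, which overlaps it by 14 bases on the other strand, 1447. The counting strand is not given in the sources used here, so that counts on mt-Nd6 may include heavy-strand reads across the same bases. The rRNAs mt-Rnr1 (small ribosomal subunit) and mt-Rnr2 (large subunit) stood at 349 and 304 CPM per kb, next to mt-Co2 at 246, mt-Co3 at 235 and mt-Atp6 at 223. The 3 shortest protein-coding genes were lowest, with mt-Nd3 at 62.6, mt-Nd4l at 39.7 and mt-Atp8 at 6.46 CPM per kb.

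Steps in this order were not equally firm. mt-Co1 lay above mt-Cytb in 6 of 6 libraries, and mt-Nd2 above mt-Nd4 in 6 of 6. The order is by full gene length, and an order by the length not shared with nuclear transcripts was not tested. Of the 50-base windows of mt-Nd4, 62.2% were also found in a nuclear transcript, against 8.19% for mt-Nd2. mt-Cytb lay above mt-Nd1 in 5 of 6 libraries, and mt-Nd6 above mt-Nd5 in 4 of 6. mt-Co2 exceeded mt-Co3 in 4 of 6 libraries and mt-Co3 exceeded mt-Atp6 in 3 of 6, so that these neighbours were not ordered beyond their spread.

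The genes were also compared by how much of each had an exact match in the listed nuclear copies. Of all 50-base windows, the share also found in such a transcript was 100% in mt-Co2, 99.9% in mt-Co3 and 99.5% in mt-Atp6. It was 98.8% in mt-Nd4l and 98.0% in mt-Nd3. These 5 genes had median levels of 39.7 to 246 CPM per kb. mt-Nd4 (62.2% shared) and mt-Co1 (51.1% shared), which lie only in part in the copied interval, had 2249 and 9844 CPM per kb. The 8 other genes shared under 10% and ranged from 6.46 to 6220 CPM per kb. mt-Atp8 was the low value among them: it lies in the copied interval, but only its last 43 bases, those it shares with mt-Atp6, lie in an annotated copy (Gm10925, no mismatch), and the sequence between the annotated copies was not compared. Reads that match 2 places may be left out, split or placed at random, and which of these was done is not given in the sources used here, so that low levels of these genes and lost reads cannot be told apart.

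**Figure D2:**
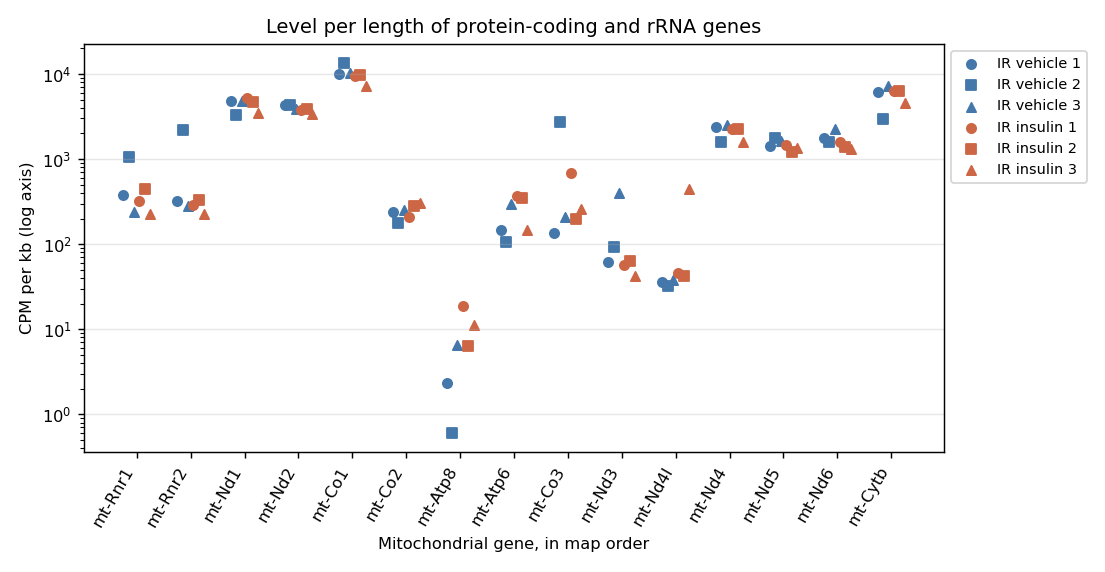
Level of the 13 protein-coding and 2 rRNA genes in map order, in CPM per kb on a log axis, with 1 point per library (blue, IR vehicle; orange, IR insulin). The genes from mt-Co2 to mt-Nd4l lie below mt-Nd1, mt-Nd2 and mt-Co1 before them and mt-Nd4 after them in nearly all libraries, with single high points for mt-Co3 in IR vehicle replicate 2, mt-Nd3 in IR vehicle replicate 3 and mt-Nd4l in IR insulin replicate 3.

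Between IR insulin and IR vehicle, no mitochondrial gene passed an adjusted p of 0.05. Fitted over all 13377 genes with edgeR's quasi-likelihood test, the smallest adjusted p of the 27 genes was 0.852, and DESeq2 and limma voom also gave 0 adjusted calls. At an unadjusted p under 0.05, 4 of 27 were called (14.8%), beside 2.86% of all genes tested. These 4, mt-Tl1, mt-Nd3, mt-Nd4l and mt-Atp8, also passed the study's limit of 0.35 on the absolute log2 fold change. Of the 4, 3 lie in the copied interval, which holds 8 of the 27 genes tested in full. At an unadjusted p under 0.05, DESeq2 called mt-Tl1, mt-Nd3, mt-Atp8 and mt-Rnr2, beside 2.38% of all genes, and gave no p for mt-Nd4l and mt-Co3. Voom with quality weights called mt-Tl1 alone, beside 1.59% of all genes.

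Of the 27 genes, 18 had a lower mean and 9 a higher mean in IR insulin, with a median log2 fold change of -0.27, beside 51.4% lower and a median of -0.02 over all genes tested. Without IR vehicle replicate 2, 19 of 27 were lower, with a median of -0.20 (47.9% of all genes lower), and without IR vehicle replicate 3, 14 of 26, with a median of -0.08 (48.5% of all genes lower). With library totals alone as the scaling, which moved the median of all genes to 0.16, 15 of 27 were lower, beside 35.0% of all genes. With an offset for GC content 14 of 27 were lower, beside 58.0% of all genes, so that the larger share of lower genes was not seen under it. The mitochondrial genes tested had a median GC content of 35.7%, against 49.3% over all genes tested, and the part of GC content in the direction was not tested beyond that offset. The groups did not overlap for 5 of 27 genes (mt-Co1, mt-Nd6, mt-Nd4l, mt-Tl1 and mt-Tr), 18.5% beside 12.3% of all genes tested. All but mt-Nd4l were lower in IR insulin, which left 4 lower beside 6.04% of all genes and 1 higher beside 6.25%. Of these, mt-Tr was counted in few reads, with 9, 17 and 12 counts in IR vehicle replicates 1 to 3 and 8, 7 and 2 in IR insulin.

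**Figure D3:**
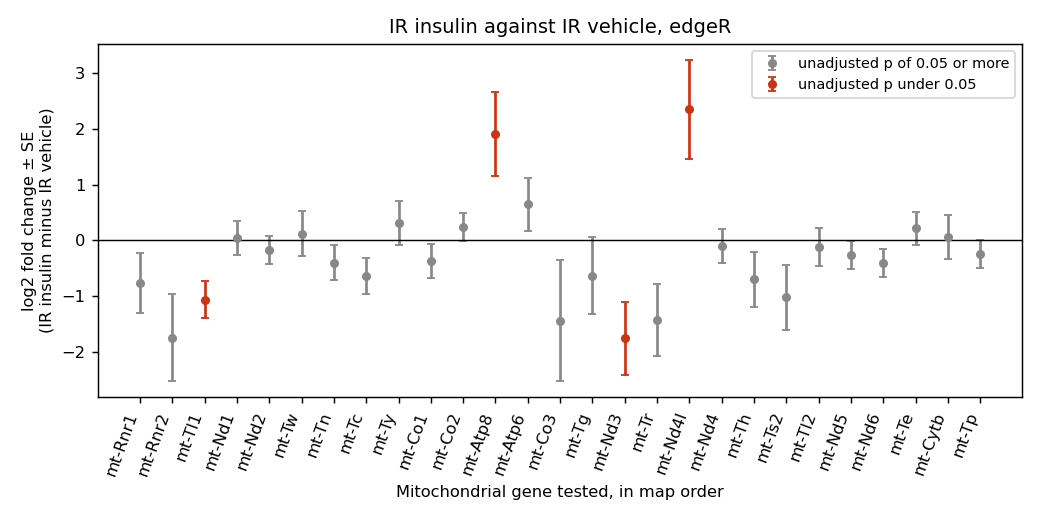
log2 fold change (IR insulin minus IR vehicle) with its standard error from edgeR for the 27 mitochondrial genes tested, in map order. The 4 genes in red had an unadjusted p under 0.05, with values from -1.76 (mt-Nd3) to 2.35 (mt-Nd4l), and none passed after adjustment.

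Among the leucine tRNAs, mt-Tl1 (87, 131 and 110 counts in IR vehicle replicates 1 to 3, 59, 57 and 74 in IR insulin) was at 4.60, 8.04 and 5.25 CPM in IR vehicle and 2.66, 2.47 and 3.41 CPM in IR insulin. Every insulin library lay below every vehicle library. Its log2 fold change was -1.06 ± 0.33 (SE; edgeR, adjusted p = 0.852), with a value between -1.22 and -0.79 when any 1 library was left out. It had an unadjusted p under 0.05 in 16 of 17 alternative fits, the exception being that without IR insulin replicate 2. mt-Tl2, the other leucine tRNA, was at 1.85 to 2.81 CPM in IR vehicle and 1.90 to 2.17 CPM in IR insulin, with a log2 fold change of -0.12 ± 0.34. No 50-base window of mt-Tl1 was found in a listed nuclear copy.

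mt-Nd4l had 10.5, 9.58 and 11.2 CPM in IR vehicle replicates 1 to 3 and 13.5, 12.4 and 133 CPM in IR insulin replicates 1 to 3. The values of 5 libraries lay close together, and IR insulin replicate 3 was 9.89 times as high as the next library. The log2 fold change of 2.35 ± 0.89 (SE; edgeR, adjusted p = 0.852) was 0.32 without that library, where its unadjusted p was above 0.05. In IR insulin replicate 3, mt-Nd4l lay 3.57 log2 units above the median of the other 5 libraries, and of the 13377 genes tested only 2, itself included, lay as far away there.

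Its nuclear copy did not share this value. Gm10222, whose 294 bases are all found in mt-Nd4l, stood at 4.80 CPM in IR insulin replicate 3, below its range of 5.34 to 7.20 CPM elsewhere. Of the counts of the pair, 63.6% to 65.1% were on mt-Nd4l in those 5 libraries, and 96.5% in IR insulin replicate 3. mt-Nd4, which follows mt-Nd4l and shares 7 bases with it, was at 2183 CPM in IR insulin replicate 3, the lowest value of the 6 libraries.

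mt-Nd3 had a pattern of the same kind in another library. It had 21.4, 31.9 and 138 CPM in IR vehicle replicates 1 to 3 and 19.9, 22.1 and 14.6 CPM in IR insulin replicates 1 to 3. IR vehicle replicate 3 was high, 4.32 times the next library, and the groups overlapped. The log2 fold change was -1.76 ± 0.66 (SE; edgeR, adjusted p = 0.852) with all libraries and -0.50 without IR vehicle replicate 3, where its unadjusted p was above 0.05. Of the counts shared between mt-Nd3 and its copy Gm28438, 94.0% were on mt-Nd3 in that library and 59.0% to 76.6% in the others.

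mt-Co3, a core subunit of complex IV, was high in IR vehicle replicate 2. It had 107, 2163 and 163 CPM in IR vehicle and 536, 156 and 206 CPM in IR insulin. Its log2 fold change was -1.44 ± 1.08 (SE; edgeR, adjusted p = 0.852) and 1.15 without IR vehicle replicate 2, so that its direction rested on that library. The copy Gm28437 had 51.7, 303 and 243 CPM in IR vehicle and 73.4, 64.98 and 44.9 CPM in IR insulin, with a log2 fold change of -1.70 ± 0.58 (SE; edgeR, unadjusted p under 0.05, adjusted p = 0.852). The share of the pair's counts on mt-Co3 ranged from 40.1% in IR vehicle replicate 3 to 88.0% in IR insulin replicate 1.

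The other pairs were more even. mt-Co2, a complex IV subunit, held 53.7% to 67.6% of the counts it shared with Gm28661, and mt-Atp6, the membrane subunit of the ATP synthase that forms its proton path, 48.4% to 64.7% of those shared with Gm10925. mt-Co2 was at 123 to 173 CPM in IR vehicle and 144 to 210 CPM in IR insulin (log2 fold change 0.25 ± 0.25), and mt-Atp6 at 71.6 to 204 and 99.8 to 251 CPM (0.64 ± 0.47). The copies of mt-Nd4 and mt-Co1 took few counts: mt-Nd4 held at least 98.9% of those shared with Gm28439, and mt-Co1 at least 99.3% of those with Gm29216 and 99.8% of those with Gm13340.

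When the counts of each copy were summed with those of its mitochondrial gene, a fit chosen after seeing the data, mt-Nd4l had a log2 fold change of 1.86 and mt-Nd3 of -1.55. The same 4 of 27 genes had an unadjusted p under 0.05 as without the sum, beside 2.86% of all genes.

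**Figure D4:**
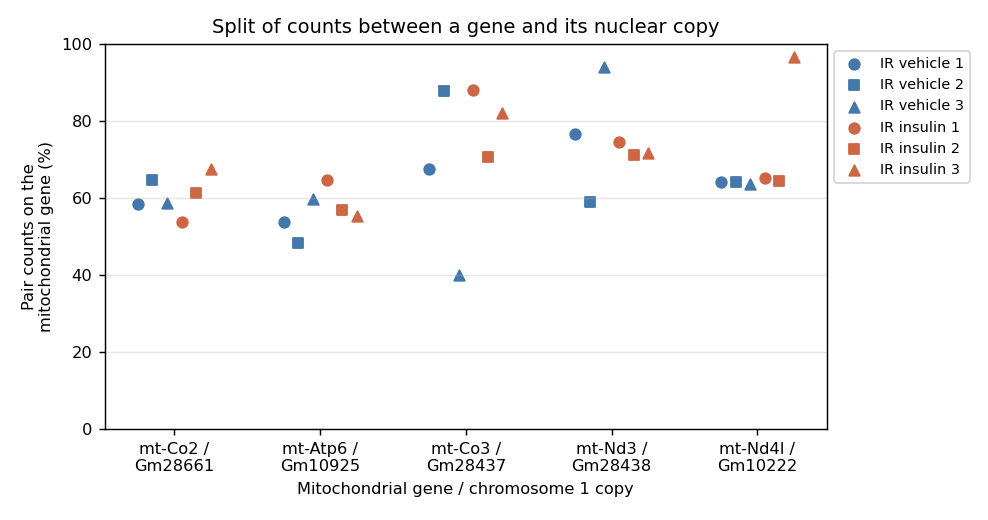
Percent of the counts of a mitochondrial gene and its chromosome 1 copy, summed, that were on the mitochondrial gene, for 5 pairs, with 1 point per library. The mt-Nd4l and Gm10222 pair lies at 63.6% to 65.1% in 5 libraries and at 96.5% in IR insulin replicate 3, and the mt-Nd3 and Gm28438 pair reaches 94.0% in IR vehicle replicate 3.

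mt-Atp8 was counted least of the protein-coding genes. It had 9, 2 and 28 counts in IR vehicle replicates 1 to 3 and 86, 30 and 50 counts in IR insulin, or 0.476, 0.123 and 1.34 CPM against 3.87, 1.30 and 2.31 CPM. IR insulin replicate 2 lay just below IR vehicle replicate 3, and the other insulin libraries lay above all vehicle libraries. The log2 fold change was 1.91 ± 0.76 (SE; edgeR, adjusted p = 0.852), and its unadjusted p was under 0.05 in 12 of 17 alternative fits. Leaving out 1 library at a time gave values from 1.45 to 2.997.

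Of the remaining complex I genes, mt-Nd1 was at 3160 to 4648 CPM in IR vehicle and 3307 to 4973 CPM in IR insulin (log2 fold change 0.05 ± 0.30). mt-Nd2 was at 3999 to 4492 and 3471 to 4060 CPM (-0.17 ± 0.25), mt-Nd4 at 2195 to 3424 and 2183 to 3100 CPM (-0.09 ± 0.30), and mt-Nd5 at 2624 to 3217 and 2209 to 2656 CPM (-0.27 ± 0.25). None of these 4 genes had an unadjusted p under 0.05 in any alternative fit. mt-Nd6 was at 915, 821 and 1182 CPM in IR vehicle and 815, 712 and 687 CPM in IR insulin, without overlap (-0.40 ± 0.25; edgeR, adjusted p = 0.852).

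mt-Co1, the most counted of the mitochondrial genes, was at 15460.5, 21099.5 and 15734 CPM in IR vehicle and 14617, 14957 and 11042.5 CPM in IR insulin. The groups did not overlap, but the gap between them was smaller than the spread within either, and the log2 fold change was -0.36 ± 0.31 (SE; edgeR, adjusted p = 0.852). mt-Cytb was at 7095, 3361 and 8261 CPM in IR vehicle and 7136, 7201 and 5206 CPM in IR insulin. Its lowest value was in IR vehicle replicate 2, where mt-Co1 was highest, and its log2 fold change was 0.06 ± 0.39, and -0.23 without that library.

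The shares of complexes I, III and IV in the mitochondrial protein-coding counts varied little outside that library. Complex I genes took 39.1% to 42.3% of the mitochondrial protein-coding counts in 5 libraries and 34.1% in IR vehicle replicate 2. Complex III (mt-Cytb) took 17.9% to 20.2% in those 5 and 8.25% in IR vehicle replicate 2, and complex IV 39.3% to 41.0% and 57.4%. The complex V genes took 0.259% to 0.667% of these counts in those 5 and 0.176% in IR vehicle replicate 2, and the groups overlapped for all 4 complexes. Of the 50-base windows, 99.5% in mt-Atp6, 100% in mt-Co2 and 99.9% in mt-Co3 were also found in a nuclear transcript. Loss of reads from these genes was not tested, so that these are shares of counts and not of mRNA.

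The rRNA genes varied most in IR vehicle replicate 2. mt-Rnr2 was at 508, 3520.04 and 446 CPM in IR vehicle and 452, 528 and 360.1 CPM in IR insulin. Only IR vehicle replicate 2 stood out, 6.66 times as high as the next library. The log2 fold change of -1.74 ± 0.77 (SE; edgeR, adjusted p = 0.852) was -0.09 without that library. mt-Rnr1 was at 227 to 1011 CPM in IR vehicle and 218 to 423 CPM in IR insulin (-0.76 ± 0.54, and 0.10 without IR vehicle replicate 2). The ratio of mt-Rnr2 to mt-Rnr1 counts was 3.48 in IR vehicle replicate 2 and 1.25 to 1.97 in the others.

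Of the tRNAs, the 5 with the highest mean count, mt-Tp (proline), mt-Tc (cysteine), mt-Te (glutamate), mt-Ty (tyrosine) and mt-Tn (asparagine), were all transcribed from the light strand. mt-Tp was at 67.3 to 113 CPM in IR vehicle and 74.1 to 79.9 CPM in IR insulin (log2 fold change -0.24 ± 0.25). mt-Tc was at 25.2 to 56.2 and 21.6 to 26.7 CPM (-0.64 ± 0.32; edgeR, adjusted p = 0.852), mt-Te at 11.6 to 23.7 and 20.04 to 25.05 CPM (0.22 ± 0.30), mt-Ty at 2.89 to 8.41 and 6.41 to 8.12 CPM (0.32 ± 0.39), and mt-Tn at 5.53 to 9.82 and 4.81 to 6.27 CPM (-0.40 ± 0.32). In each of these the groups overlapped. Without IR vehicle replicate 2 the log2 fold change was -0.22 for mt-Tc, 0.00047 for mt-Ty and -0.031 for mt-Te. mt-Ts2 (serine) was at 1.005 to 3.87 CPM in IR vehicle and 0.649 to 1.67 CPM in IR insulin (-1.02 ± 0.58; edgeR, adjusted p = 0.852), and its log2 fold change was -0.49 without IR vehicle replicate 2. Of the 12 tRNA genes tested, 9 were lower and 3 higher in IR insulin by their means, with a median of -0.51. The counting strand is not given in the sources used here, so that light-strand tRNAs and heavy-strand reads across the same bases cannot be told apart. This limit also holds for mt-Nd6 and for the share of light-strand genes.

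Single libraries lay far from the rest for some genes. Of the 27 genes, 5 (18.5%) lay at least 2 log2 units from the median of the other 5 libraries in some library, beside 9.99% of all genes tested. They were mt-Co3 (3.73), mt-Rnr2 (2.96) and mt-Atp8 (-2.70) in IR vehicle replicate 2, mt-Nd3 (2.68) in IR vehicle replicate 3 and mt-Nd4l (3.57) in IR insulin replicate 3. In IR vehicle replicate 2, 7.54% of the genes tested lay at least 2 log2 units out. In IR vehicle replicate 3 it was 2.47%, and in IR insulin replicate 3 it was 0.262%. The share that lay as far out in IR vehicle replicate 2 as the gene itself was 0.665% for mt-Co3, 2.14% for mt-Rnr2 and 3.04% for mt-Atp8. For mt-Nd3 the share was 1.10% in its library and for mt-Nd4l 0.015%.

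**Figure D5:**
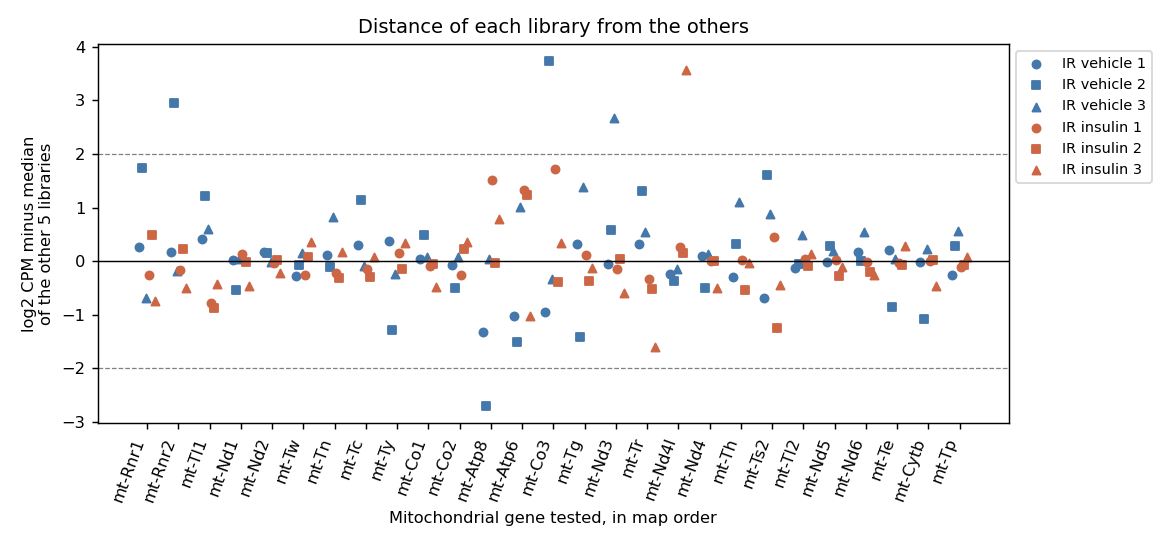
Distance of each library from the median of the other 5 (log2 CPM) for the 27 mitochondrial genes tested, in map order, with dashed lines at 2 and -2. Points beyond the lines are mt-Rnr2, mt-Atp8 and mt-Co3 in IR vehicle replicate 2, mt-Nd3 in IR vehicle replicate 3 and mt-Nd4l in IR insulin replicate 3.

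Nuclear genes that copy, transcribe and process mitochondrial DNA and RNA were read from the same fit. Of 39 such genes tested, 21 were higher and 18 lower in IR insulin by their means, with a median log2 fold change of 0.01. An unadjusted p under 0.05 was found for 0 of 39, beside 2.86% of all genes. Without IR vehicle replicate 2 it was 1 of 39, beside 3.74% of all genes. Tfam, which packages mitochondrial DNA and starts its transcription, was at 50.1, 85.4 and 58.1 CPM in IR vehicle and 48.5, 51.9 and 51.6 CPM in IR insulin (-0.35 ± 0.25). Polrmt, the mitochondrial RNA polymerase, had a log2 fold change of 0.35 ± 0.40, and Tefm, its elongation factor, of -0.41 ± 0.27. Lrpprc, which with Slirp stabilises mitochondrial mRNAs, was at 115, 194 and 115 CPM in IR vehicle and 95.3, 101 and 111 CPM in IR insulin, without overlap (-0.47 ± 0.27; edgeR, adjusted p = 0.852), whereas Slirp did not pass the filter on low counts. Ppargc1a, a coactivator of mitochondrial biogenesis, had a log2 fold change of -0.67 ± 0.43, and the smallest p-values of the list were those of Fastkd1, of a family of mitochondrial RNA-binding proteins (-0.55 ± 0.27; edgeR, adjusted p = 0.852), and Mterf3, a factor of mitochondrial ribosome assembly (-0.45 ± 0.24; edgeR, adjusted p = 0.852).

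The nuclear-encoded subunits of the respiratory chain and ATP synthase, the partners of the mitochondrial subunits, were mostly lower in IR insulin by their means. Of 78 tested, 56 were lower and 22 higher, with a median log2 fold change of -0.21, and 5 (6.41%, all lower) had an unadjusted p under 0.05, beside 2.86% of all genes, and none passed after adjustment. Without IR vehicle replicate 2, 72 of 78 were lower (median -0.26, with 47.9% of all genes lower). With library totals alone 43 of 78 were lower (median -0.03, with 35.0% of all genes lower). With the GC offset 61 of 78 were lower (median -0.262, with 58.0% of all genes lower). The number with an unadjusted p under 0.05 depended on the setting: it was 4 without IR vehicle replicate 2 (3.74% of all genes), 1 with library totals alone (2.55% of all genes) and 18 with the GC offset (3.55% of all genes), all of them lower. Ndufb5, an accessory subunit of complex I, was at 92.4, 185 and 127 CPM in IR vehicle and 78.8, 77.3 and 60.6 CPM in IR insulin (-0.90 ± 0.30; edgeR, unadjusted p under 0.05, adjusted p = 0.852). Atp5l, the g subunit of the ATP synthase, was at 98.9, 170.4 and 142 CPM in IR vehicle and 88.3, 93.4 and 80.8 CPM in IR insulin (-0.65 ± 0.26; edgeR, unadjusted p under 0.05, adjusted p = 0.852). In both genes every insulin library lay below every vehicle library, and IR vehicle replicate 2 was the highest.

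Of the mitochondrial ribosomal proteins, which are made from nuclear genes and bind the rRNAs above, 43 of 77 tested were higher and 34 lower by their means, with a median log2 fold change of 0.04. Without IR vehicle replicate 2 this turned to 60 of 77 lower (median -0.10, with 47.9% of all genes lower). In all libraries 1 of the 77 (1.3%) had an unadjusted p under 0.05, beside 2.86% of all genes. Without IR vehicle replicate 2 it was 3 of 77, all lower, beside 3.74% of all genes. Mrpl18 (a protein of the large subunit) was at 25.2, 43.1 and 30.0 CPM in IR vehicle and 19.99, 21.5 and 21.9 CPM in IR insulin (-0.63 ± 0.25; edgeR, unadjusted p under 0.05, adjusted p = 0.852). The next smallest p was that of Mrps30 (-0.52 ± 0.23; edgeR, adjusted p = 0.852), and the groups overlapped for neither gene.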

How the data were processed

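Libraries were prepared by the authors using NEBNext Ultra RNA reagents and run on a HiSeq instrument (Illumina), and reads were aligned to mouse build 38 (mm10) with Bowtie2 2.2.3 (version from the submitters' processing notes). The counting program, its annotation and the handling of multi-mapped and strand-specific reads are not given in the sources used here. The deposited values are whole-number counts per gene for 6 libraries, 3 per group.

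The members and gene lists were chosen with earlier results of these data known. Genes passing edgeR's filterByExpr (minimum count 10, minimum total 15) were fitted with edgeR 4.0.16 (R 4.3.3; TMM scaling, quasi-likelihood F test, no covariate), and p-values were adjusted over all 13377 genes by Benjamini-Hochberg. The script was tested on simulated data. CPM are means ± SD over libraries, on TMM-scaled library sizes. Shares of counts were compared by exact permutation. Coordinates, lengths and GC content came from GENCODE release 21, and copies were aligned with blastn 2.17.0. DESeq2 1.42.0 and limma 3.58.1 (voom) were alternatives, as were other scalings and filters, a GC offset, a replicate block, and leaving out each library or the nuclear copies.

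All mitochondrial protein-coding and rRNA genes are named, with the 8 tRNA genes of highest mean count. Of the nuclear genes, Tfam, Polrmt, Tefm, Lrpprc, Slirp and Ppargc1a are named, with the 2 of smallest p from each list and the copies with a mean of at least 50 counts. mt-Tr, mt-Tw, mt-Tg and the tRNA genes at 0 counts were named after their values were seen. By the study's methods each library came from its own mouse.

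Same-numbered libraries of the groups did not deviate together (Pearson r = -0.04, 0.07 and 0.02 over genes), so that the numbers were not used as pairs.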

Additional observations from a re-analysis of the deposited data

How the results depend on the processing

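In all 18 fits, the reported one included, no mitochondrial gene passed an adjusted p of 0.05. Of the 27 genes, 15 kept their direction in every alternative run and 12 changed it in at least 1. The number of mitochondrial genes with an unadjusted p under 0.05 was 4 in the reported fit, beside 2.86% of all genes. With voom and quality weights it was 1, beside 1.59% of all genes. When 1 library was left out it was 1 to 6. It was 1 without IR insulin replicate 3, beside 0.875% of all genes, and 6 without IR vehicle replicate 3, beside 6.51%. The libraries share only a replicate number. With that number as a replicate block, 2 mitochondrial genes were called, mt-Atp8 and mt-Tl1, beside 2.4% of all genes.

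Over all genes, the number with an unadjusted p under 0.05 was 383 in the reported fit, 548 with DESeq2, 742 without a filter on low counts, 213 with voom, and 99 to 1349 when 1 library was left out (1349 without IR vehicle replicate 1, 99 without IR insulin replicate 1). The cause of these changes was not tested.

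Log2 fold changes that changed sign were mt-Nd1 (-0.0054), mt-Ty (-0.069), mt-Co3 (0.94), mt-Te (-0.071) and mt-Cytb (-0.044) with voom, mt-Nd2 (0.00355), mt-Nd4 (0.060) and mt-Tl2 (0.053) with library totals alone, and mt-Nd2 (0.15), mt-Nd4 (0.13), mt-Tl2 (0.24) and mt-Nd5 (0.040) with the GC offset. Library totals alone moved the median of all genes from -0.02 to 0.16, and the 3 values that changed sign under it stayed below that median.

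Leaving out 1 library at a time gave log2 fold changes from -1.13 to 0.10 for mt-Rnr1, -0.11 to 0.21 for mt-Nd1, -0.030 to 0.26 for mt-Tw, -2.16 to 1.15 for mt-Co3, -1.08 to 0.24 for mt-Tg, -0.27 to 0.066 for mt-Nd4, -0.23 to 0.091 for mt-Tl2, -0.031 to 0.42 for mt-Te and -0.23 to 0.32 for mt-Cytb. The differences in share ranged from -0.307 to 0.108 percentage points for all mitochondrial genes (0.108 without IR insulin replicate 3), -0.271 to 0.196 for protein-coding genes, -0.151 to 0.00365 for rRNA genes and -0.00184 to 0.00013 for tRNA genes, from -3.96 to 0.22 for rRNA as a share of mitochondrial counts and from -0.476 to 0.0596 for light-strand genes. Under the other alternatives that could be run for each share, 18 values in all, the sign did not change, and exact p-values ran from 0.25 to 1.

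With 3 libraries per group, 1 library decided the values of mt-Nd4l, mt-Nd3, mt-Co3 and mt-Rnr2. mt-Atp8 and most tRNA genes were counted in few reads, and the genes from mt-Co2 to mt-Nd4l depend on how reads with several matches were counted, which was not tested.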
